A study of Mus musculus with 24 samples.

Results

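Acyl-CoA synthetases join a fatty acid or another carboxylic acid to coenzyme A, using ATP, and so make the acid available to every later step of its metabolism. Here 10 members of the families Acsl (long-chain), Acsm (medium-chain) and Acss (short-chain) were followed in mouse liver RNA-Seq as a set chosen by gene name, *Acsl1*, *Acsl3*, *Acsl4*, *Acsl5*, *Acsm1*, *Acsm2*, *Acsm3*, *Acsm5*, *Acss2* and *Acss3*. All 10 have a row among the 23972 genes of the deposited count table. They were chosen with earlier results of these data known, so every count, fold change and adjusted p given for them is a description of these libraries and supports nothing beyond it.

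The 24 libraries each came from the liver of 1 female mouse. LmnaADKO mice (labelled Lmna.KO) were Lmna fl/fl with an Adipoq-Cre transgene, which is active in adipocytes and deletes exons 10 and 11 of *Lmna* there, so that the mice lose fat tissue. Controls (labelled Lmna.WT) were Lmna fl/fl without Cre. All were 12 to 14 weeks old at the start, were housed at 22°C, had a 60% high-fat diet for 4 weeks before a retro-orbital injection, and were killed 8 weeks after it. Vehicle was given to 7 controls and 6 LmnaADKO mice. An AAV8 vector expressing mouse FGF21, a hormone of energy balance, was given to 3 controls and 8 LmnaADKO mice, which the labels call Rescue. Nothing says whether the animals of a group were littermates or processed together.

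Each library held 19863304 to 21510054 counts. *Lmna* was counted in every library, at 15.7 to 22.1 CPM (counts scaled to the size of each library) in vehicle-treated controls and at 23.6 to 31.0 CPM in vehicle-treated LmnaADKO livers, and a whole-gene count from liver cannot show the deletion made in adipocytes. *Fgf21* counts did not set the groups apart (medians 2.80 and 3.80 CPM in controls with vehicle and FGF21, 8.04 and 4.81 CPM in LmnaADKO livers). The study itself reports that plasma FGF21 rose after transduction at 22°C, more in LmnaADKO mice than in controls. Whether transcripts of the vector are counted under *Fgf21* was not tested. In 3 libraries longer genes were low relative to the libraries of the same genotype. Each gene's median log2 CPM over the libraries of the same genotype was subtracted, and the remainder was set against log2 exonic length. The slope was -0.33 to -0.15 in these 3, against -0.11 to 0.13 in the other 21. These were the third control given vehicle (-0.15), the third control given FGF21 (-0.29) and the seventh LmnaADKO mouse given FGF21 (-0.33). The third control given vehicle lay close to the next library, the second LmnaADKO mouse given FGF21 (-0.11). Animal numbers were also unevenly spread, since 6 of 7 vehicle-treated controls had 3-digit numbers and 5 of 6 vehicle-treated LmnaADKO mice had 4-digit numbers. All 3 FGF21-treated controls had 4-digit numbers, against 1 vehicle-treated control, so FGF21 in controls can hardly be told apart from this split. Of the FGF21-treated LmnaADKO mice, 4 had 3-digit and 4 had 4-digit numbers. Results that rest on these libraries or on this split are given with and without them.

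In background terms, the long-chain enzymes sit on the endoplasmic reticulum, the outer mitochondrial membrane and lipid droplets and activate dietary and newly made fatty acids for both storage and oxidation. The medium-chain enzymes lie in the mitochondrial matrix, where they activate medium-chain fatty acids and also aromatic acids such as benzoate for glycine conjugation. The short-chain enzymes activate acetate and propionate. Genes of sterol and fatty acid synthesis, including *Acss2*, are known targets of the SREBP transcription factors in liver, whereas *Acsl1* is a known target of PPARA.

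Of the members only the Acsm genes are neighbours. In GRCm38 coordinates with the GENCODE M21 annotation, *Acsl1* spans chr8:46471037-46536051, *Acsl3* chr1:78657825-78707743, *Acsl4* chrX:142317993-142390535 and *Acsl5* chr19:55251938-55297720. The 4 Acsm members lie within 268 kb of chromosome 7, with *Acsm5* at 119519463 to 119545551, *Acsm2* at 119554340 to 119600690, *Acsm1* at 119607026 to 119662515 and *Acsm3* at 119760923 to 119787513, all on the plus strand. *Acss2* spans chr2:155517948-155585724 and *Acss3* chr10:106933517-107123668.

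The promoters of the 5 members whose levels differed most clearly between genotypes with vehicle, described next, are shown. In LmnaADKO livers 4 of these genes were higher and *Acsm1* was lower. The stretches lie just before the transcription start in RefSeq (GRCm38.p6), are trimmed to bases outside any annotated exon, and read 5′ to 3′ on the strand of the gene, with capitals marking a match to any of 5 searched motifs.
Acsl3, chr1:78657575-78657824, plus strand: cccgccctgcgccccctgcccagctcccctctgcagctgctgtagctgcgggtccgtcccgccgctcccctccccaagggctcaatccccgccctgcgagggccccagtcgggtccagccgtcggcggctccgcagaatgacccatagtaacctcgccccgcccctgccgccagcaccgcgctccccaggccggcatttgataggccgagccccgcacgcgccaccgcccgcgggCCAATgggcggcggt
Acsl4, chrX:142390536-142390785, minus strand: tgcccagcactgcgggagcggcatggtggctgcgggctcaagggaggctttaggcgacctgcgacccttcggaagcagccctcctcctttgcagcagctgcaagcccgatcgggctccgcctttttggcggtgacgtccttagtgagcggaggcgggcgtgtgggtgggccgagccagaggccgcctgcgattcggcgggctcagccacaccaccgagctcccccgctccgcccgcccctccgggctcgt
Acsl5, chr19:55253119-55253368, plus strand: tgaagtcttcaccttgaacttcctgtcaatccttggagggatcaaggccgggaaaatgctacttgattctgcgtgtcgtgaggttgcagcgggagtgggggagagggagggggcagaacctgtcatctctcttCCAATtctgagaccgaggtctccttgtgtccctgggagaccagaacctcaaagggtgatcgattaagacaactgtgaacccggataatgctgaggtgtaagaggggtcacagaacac
Acss2, chr2:155517793-155517947, plus strand: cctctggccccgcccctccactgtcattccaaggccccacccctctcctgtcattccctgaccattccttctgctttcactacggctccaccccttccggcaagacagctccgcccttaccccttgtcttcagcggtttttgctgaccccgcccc
Acsm1, chr7:119617562-119617780, plus strand: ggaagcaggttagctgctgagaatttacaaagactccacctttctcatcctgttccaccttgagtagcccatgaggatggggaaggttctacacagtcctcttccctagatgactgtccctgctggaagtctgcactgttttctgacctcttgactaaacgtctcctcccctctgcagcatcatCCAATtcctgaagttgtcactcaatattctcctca

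The 5 sequences differ in base composition. The *Acsl3* and *Acsl4* stretches are GC-rich, with 75.6% and 70.8% G or C and 28 and 25 CG pairs in 250 bases. The *Acsl5* stretch of the same length holds 7 CG pairs at 52.8% G or C, and the 219 bases of *Acsm1* hold 1 CG pair at 48.4%. The 155 bases of *Acss2* hold 6 CG pairs at 62.6%.

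Promoters were available for 9 members (all but *Acss3*), 11 promoters in all since *Acsl1* and *Acsm2* have a pair each, and 5 motifs were searched on both strands (N is any base) over 250 bases before and 50 after each start. The motifs were picked after the members' levels were known, and a match is only a run of letters. The sterol regulatory element TCACNCCAC, found in 1.24% of 32851 mouse promoters, matched in the downstream *Acsl1* promoter, as GTGGGGTGA on the antisense strand 76 bases before the start, and in no other of the 11, that of *Acss2* included. The E-box CACGTG, found in 7.15%, matched in *Acsm5*, 132 bases before the start. The CCAAT box, found in 37.4%, matched in 7 members, *Acsl1*, *Acsl3*, *Acsl5*, *Acsm1*, *Acsm3*, *Acsm5* and *Acss2*, the last outside the stretch shown. The DR1 motif (AGGTCA, any base, AGGTCA), found in 0.0396%, and the NRF-1 motif (GCGCA, any base, GCGC), found in 4.6%, matched in none.

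In vehicle-treated livers, transcripts of 3 long-chain synthetases (*Acsl3*, *Acsl4*, *Acsl5*) and of the acetate-activating *Acss2* were higher in LmnaADKO than in control mice, by 1.68 to 2.09-fold, and the medium-chain *Acsm1* was 1.69-fold lower. In edgeR's quasi-likelihood test, 5 of 10 members thus passed both thresholds (adjusted p under 0.05 over all 23972 genes and fold above 1.5), 4 higher and 1 lower. Of all genes, 8.48% passed in this comparison, 5.12% higher and 3.36% lower. The libraries of the 2 groups did not overlap for 3 members (*Acsl4*, *Acsl5* and *Acsm1*), as they did not for 7.95% of all genes (2 members higher, beside 4.22%, and 1 lower, beside 3.73%). The median log2 fold change of the 9 members above the floor of 3 counts was 0.22, beside 0.0027 over all genes. Without the 3 libraries that stand apart, the same 5 members passed. With the series of animal numbers as a covariate, 4 passed and *Acss2* did not (adjusted p = 0.068), at a log2 fold change of 0.87 ± 0.30 against 0.83 ± 0.24 without the covariate.

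**Figure D1:**
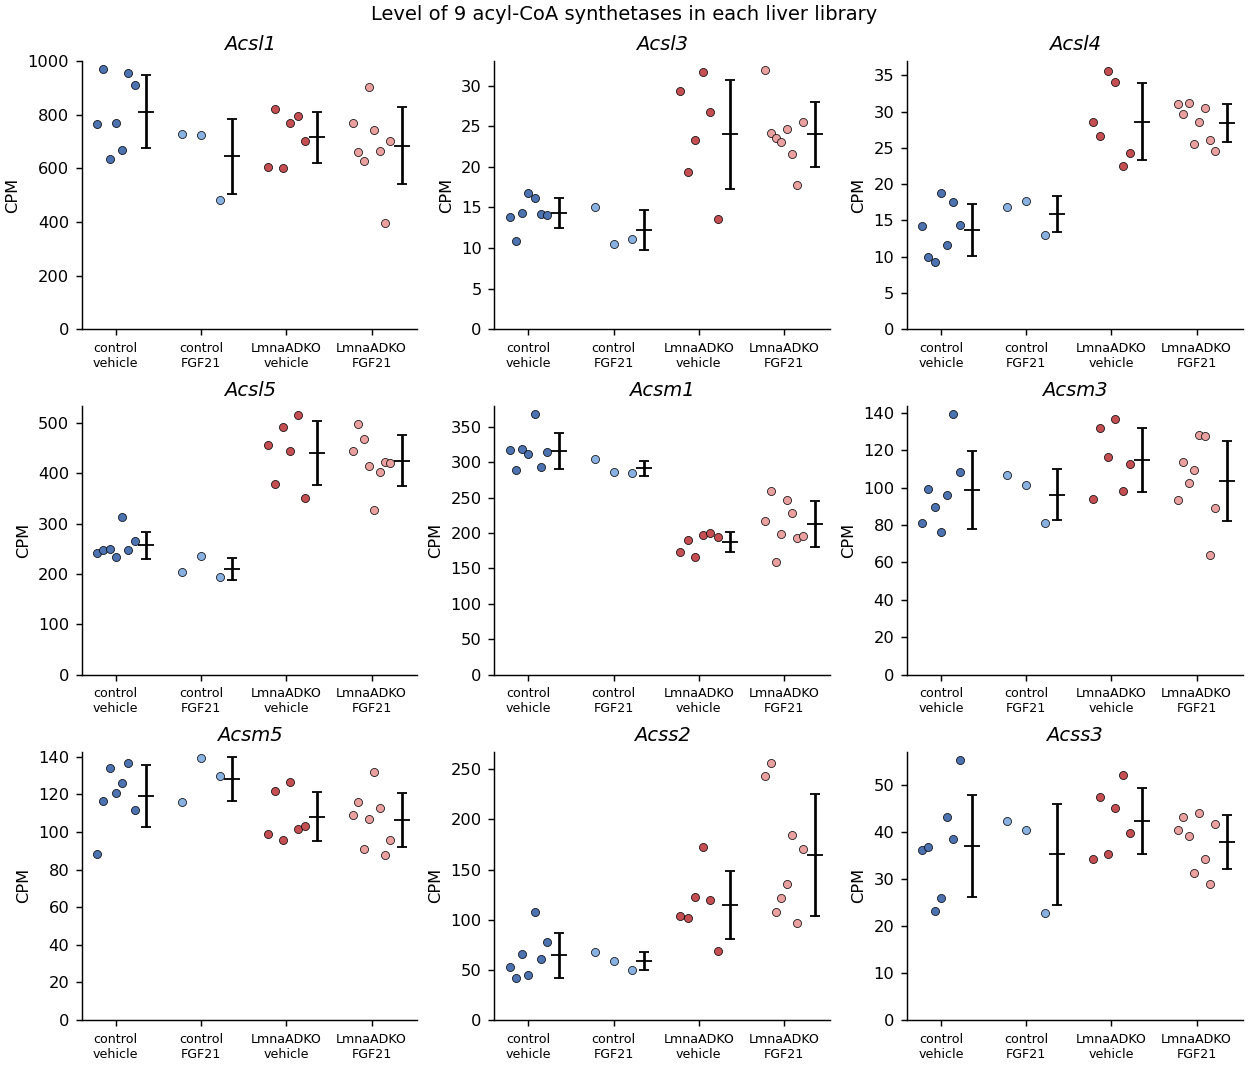
Level of each of 9 members in CPM (linear axis from 0) in the 24 liver libraries, 1 point a library, with the mean and SD of each group beside the points. *Acsl4* and *Acsl5* sit higher and *Acsm1* lower in every LmnaADKO library than in any control library given vehicle, while the groups of *Acsl1*, *Acsm3*, *Acsm5* and *Acss3* overlap.

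Among the long-chain enzymes, *Acsl1*, an enzyme of both fatty acid oxidation and triacylglycerol synthesis, ran from 637 to 972 CPM (median 770) in vehicle-treated controls and from 603 to 822 CPM (median 736) in vehicle-treated LmnaADKO livers. With FGF21 it was at 728, 724 and 483 CPM in the 3 controls and at 397 to 904 CPM (median 683) in LmnaADKO livers. The groups overlapped throughout. The 483 and the 397 CPM, the lowest values of *Acsl1*, belong to 2 of the 3 libraries that stand apart by gene length. Its log2 fold change for genotype was -0.18 ± 0.15 (SE) with vehicle (adjusted p = 0.47) and 0.085 ± 0.18 with FGF21 (adjusted p = 0.85).

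*Acsl5*, an isoform of mitochondria and endoplasmic reticulum, was at 234 to 312 CPM (median 248) in vehicle-treated controls and at 351 to 516 CPM (median 449) in vehicle-treated LmnaADKO livers. The FGF21-treated controls were at 203, 235 and 193 CPM, and the FGF21-treated LmnaADKO livers at 327 to 498 CPM (median 421). Every LmnaADKO library was above every control library, whatever the treatment. The log2 fold change for genotype was 0.78 ± 0.11 with vehicle (adjusted p = 1.4e-05) and 1.01 ± 0.14 with FGF21 (adjusted p = 6.5e-05).

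*Acsl4*, which prefers arachidonate and other polyunsaturated acids, was at 9.23 to 18.8 CPM (median 14.2) in vehicle-treated controls and at 22.5 to 35.6 CPM (median 27.6) in vehicle-treated LmnaADKO livers. With FGF21 the controls were at 16.9, 17.7 and 13.0 CPM and the LmnaADKO livers at 24.6 to 31.2 CPM (median 29.1). Again no LmnaADKO library fell to the level of a control. The log2 fold change was 1.06 ± 0.14 with vehicle (adjusted p = 6.4e-06), the largest among the members there, and 0.84 ± 0.18 with FGF21 (adjusted p = 0.0063). Without the third FGF21-treated control the latter no longer passed (0.71 ± 0.20, adjusted p = 0.069).

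*Acsl3*, a synthetase of the endoplasmic reticulum and of forming lipid droplets, was at 10.9 to 16.8 CPM (median 14.1) in vehicle-treated controls and at 13.6 to 31.7 CPM (median 25.1) in vehicle-treated LmnaADKO livers. Of the 6 LmnaADKO libraries, 5 were above all controls, and the sixth, at 13.6 CPM, lay among them. With FGF21 the controls were at 15.0, 10.5 and 11.1 CPM and all 8 LmnaADKO livers were higher, at 17.7 to 31.9 CPM (median 23.9). The log2 fold change was 0.75 ± 0.15 with vehicle (adjusted p = 0.00089) and 0.98 ± 0.19 with FGF21 (adjusted p = 0.0037). Among animals with 4-digit numbers only, the latter was 0.86 ± 0.24 and did not pass (adjusted p = 0.099).

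Levels of different genes were compared per kilobase of the annotated principal transcript, as CPM per kb. On this scale *Acsl1* was at 208 ± 35.0 (SD, n = 7) in vehicle-treated controls, *Acsl5* at 60.5 ± 6.18, *Acsl3* at 3.62 ± 0.481 and *Acsl4* at 2.59 ± 0.691. Among all members the order in these controls was *Acsl1*, *Acsm1* (152 ± 12.3), *Acsl5*, *Acsm5* (40.0 ± 5.47), *Acsm3* (35.8 ± 7.65), *Acss2* (22.04 ± 7.69), *Acss3* (7.89 ± 2.30), *Acsl3* and *Acsl4*, with *Acsm2* last, and *Acsm5* and *Acsm3* differed by less than the SD of either. *Acsl1* made up 75.4% ± 4.08 of the summed long-chain level in these controls and 61.4% ± 5.36 (n = 6) in vehicle-treated LmnaADKO livers. *Acsl5* made up 22.3% ± 3.87 and 34.7% ± 4.79. The lowest control share of *Acsl1*, 68.3%, was just above the highest LmnaADKO share, 68.0%. With FGF21 the share of *Acsl1* was 74.5% ± 3.25 (n = 3) in controls and 60.6% ± 6.56 (n = 8) in LmnaADKO livers, and the lowest of all, 48.3%, was in the seventh of these, a library that stands apart. The summed level itself ran from 227 to 312 CPM per kb in vehicle-treated controls and from 271 to 337 in vehicle-treated LmnaADKO livers, which overlap. Shares and order depend on the transcript length chosen. With all annotated exons *Acsm1* lay above *Acsl1* in vehicle-treated controls, and *Acsl1* made up 56.9% of the mean long-chain level there and 40.3% in vehicle-treated LmnaADKO livers, where *Acsl5* made up 53.3%.

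**Figure D2:**
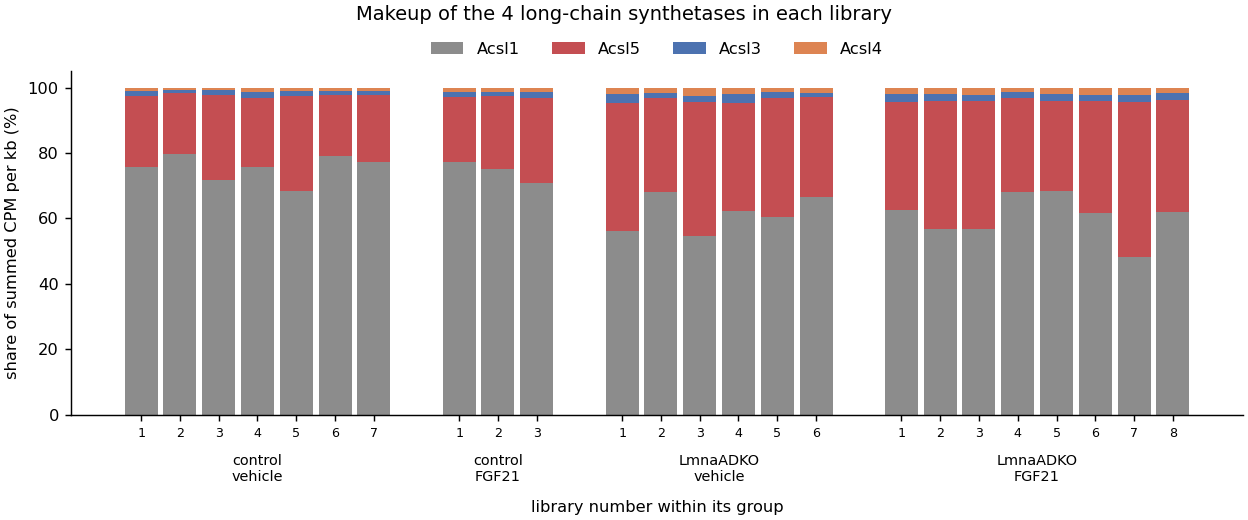
Share of *Acsl1*, *Acsl5*, *Acsl3* and *Acsl4* in their summed level (CPM per kb of the principal transcript, in percent, bars from 0 to 100) in each of 24 libraries, grouped by genotype and treatment. *Acsl1* holds 68.3 to 79.9% in vehicle-treated controls and 54.6 to 68.0% in vehicle-treated LmnaADKO livers, where *Acsl5* takes up most of the difference.

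Of the medium-chain enzymes, only *Acsm1*, a mitochondrial enzyme of medium-chain and aromatic acid activation, passed the thresholds. It was at 289 to 368 CPM (median 315) in vehicle-treated controls and at 166 to 200 CPM (median 192) in vehicle-treated LmnaADKO livers. With FGF21 the controls were at 304, 286 and 285 CPM and the LmnaADKO livers at 159 to 259 CPM (median 208). Every LmnaADKO library was below every control library. The log2 fold change was -0.76 ± 0.10 with vehicle (adjusted p = 9.0e-06) and -0.46 ± 0.12 with FGF21, where the adjusted p was 0.028 but the fold of 1.37 was under the limit.

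Its neighbours on chromosome 7 did not pass. *Acsm3* was at 76.3 to 140 CPM (median 95.8) in vehicle-treated controls and at 93.9 to 137 CPM (median 115) in vehicle-treated LmnaADKO livers (log2 fold change 0.22 ± 0.14, adjusted p = 0.35). *Acsm5* was at 88.3 to 137 CPM (median 121) and 95.5 to 127 CPM (median 102.4) in the same groups (-0.14 ± 0.11, adjusted p = 0.45). With FGF21 the log2 fold changes for genotype were 0.10 ± 0.18 for *Acsm3* and -0.27 ± 0.13 for *Acsm5* (adjusted p = 0.80 and 0.30). *Acsm2*, which is known mainly from kidney, had 0 to 3 counts in every library and 0 in 8 of the 24, so no fold is given for it.

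The makeup of the medium-chain group was taken in the same way. In vehicle-treated controls *Acsm1* made up 66.7% ± 4.05 (n = 7) of the summed level per kb, *Acsm5* 17.6% ± 1.96 and *Acsm3* 15.7% ± 2.99. In vehicle-treated LmnaADKO livers the shares were 53.6% ± 2.97 (n = 6), 21.6% ± 1.07 and 24.8% ± 2.39. The summed level ran from 211 to 254 CPM per kb in these controls and from 150 to 187 in these LmnaADKO livers, without overlap. With FGF21 the share of *Acsm1* was 62.2 to 65.3% in controls and 52.9 to 63.7% in LmnaADKO livers, which overlap. With all annotated exons *Acsm1* made up 73.8% of the mean medium-chain level in vehicle-treated controls and 62.3% in vehicle-treated LmnaADKO livers.

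The short-chain members parted. *Acss2*, the enzyme of cytosol and nucleus that makes acetyl-CoA from acetate, was at 42.1 to 108 CPM (median 61.1) in vehicle-treated controls and at 68.8 to 172 CPM (median 112) in vehicle-treated LmnaADKO livers. Those groups overlapped, since the fifth control, at 108 CPM, lay above 3 of the LmnaADKO libraries, and the lowest of these, at 68.8 CPM, also lay below the control at 77.3 CPM. With FGF21 the controls were at 67.6, 59.1 and 49.4 CPM, and all 8 LmnaADKO livers were higher, at 97.1 to 257 CPM (median 153). The log2 fold change was 0.83 ± 0.24 with vehicle (adjusted p = 0.022) and 1.49 ± 0.32 with FGF21 (adjusted p = 0.0098), the largest of any member there. Neither stayed under the adjusted p of 0.05 in every alternative. Without the fourth vehicle-treated LmnaADKO mouse the former was 0.67 ± 0.24 (adjusted p = 0.068), in the same direction. The latter was 1.49 without the second FGF21-treated control (adjusted p = 0.052), 1.38 without the third (adjusted p = 0.087) and 1.47 without the 3 libraries that stand apart (adjusted p = 0.070), so its size stayed close to that with all libraries.

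*Acss3*, a mitochondrial enzyme that prefers propionate, was at 23.1 to 55.5 CPM (median 36.7) in vehicle-treated controls and at 34.2 to 52.2 CPM (median 42.4) in vehicle-treated LmnaADKO livers. The groups overlapped, with a log2 fold change of 0.19 ± 0.17 (adjusted p = 0.49). With FGF21 the controls were at 42.4, 40.6 and 22.8 CPM and the LmnaADKO livers at 28.9 to 44.0 CPM (0.10 ± 0.21, adjusted p = 0.84). The value of 22.8 CPM belongs to the third FGF21-treated control, and without it the sign turned (-0.13 ± 0.21, adjusted p = 0.81).

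In FGF21-treated livers, 4 of 10 members passed for genotype, all higher (*Acsl3*, *Acsl4*, *Acsl5* and *Acss2*), where 2.88% of all genes passed, 1.61% higher and 1.26% lower. Groups did not overlap for 5 members, these 4 and *Acsm1*, as for 5.35% of all genes (2.98% higher and 2.37% lower). The median log2 fold change of the 9 members above the floor was 0.10, beside 0.018 over all genes. Only 3 controls stood behind this comparison, and leaving out the third of them, which stands apart, left 2 members (*Acsl3* and *Acsl5*). The vehicle and FGF21 comparisons of genotype share no library. Both came from the same fit, with the spread of each gene estimated over all libraries together, so they are not independent repeats.

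No difference between FGF21 and vehicle passed for any member. In controls the count was 0 of 10 with edgeR and 0 with DESeq2, where 0.0542% of all genes passed with edgeR (0.0501% higher). No member's groups were without overlap there, beside 1.67% of all genes (0.997% higher and 0.676% lower). At an unadjusted p under 0.05 there was 1 member, *Acsl5*, with a log2 fold change of -0.29 ± 0.14 (adjusted p = 0.77). Of all 23972 genes, 1476 were at that unadjusted p with edgeR. In LmnaADKO livers the count was also 0 of 10 with both tools, where 0.0% of all genes passed with edgeR and 15 genes passed with DESeq2. Groups overlapped for all members there, and did not for 0.0751% of all genes (0.025% higher and 0.0501% lower). The member at an unadjusted p under 0.05 was *Acss2*, at 0.52 ± 0.24 (adjusted p = 0.70), where 6 of the 8 livers given FGF21 exceeded the median of those given vehicle (DESeq2 placed 2 members under that p). With edgeR, 1608 of all 23972 genes were at that unadjusted p. The log2 fold changes of *Acsl3*, *Acsl4* and *Acsl5* in LmnaADKO livers were 0.000083 ± 0.14, -0.011 ± 0.14 and -0.050 ± 0.11, and that of *Acsm1* was 0.18 ± 0.10 (adjusted p = 0.71). With the series of animal numbers as a covariate, 0 members were at an unadjusted p under 0.05 for FGF21 in either genotype with edgeR. That count was also 0 in LmnaADKO livers among animals with 4-digit numbers only. Without the 3 libraries that stand apart it was 0 in controls and 2 in LmnaADKO livers. The genotype comparison with vehicle and the FGF21 comparisons share libraries, so their values are set side by side only.

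Whether the genotype difference itself changed with FGF21 was tested as an interaction in the same fit. No member passed with edgeR or with DESeq2, and none was at an unadjusted p under 0.05 with edgeR (1 with DESeq2). With edgeR, 0.00417% of all genes passed, and 1165 of 23972 were at such an unadjusted p. The interaction was 0.66 ± 0.39 on the log2 scale for *Acss2* (adjusted p = 0.98) and 0.30 ± 0.16 for *Acsm1* (adjusted p = 0.98). The smaller log2 difference of *Acsm1* and the larger one of *Acss2* under FGF21 are thus not shown to differ from those under vehicle.

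**Figure D3:**
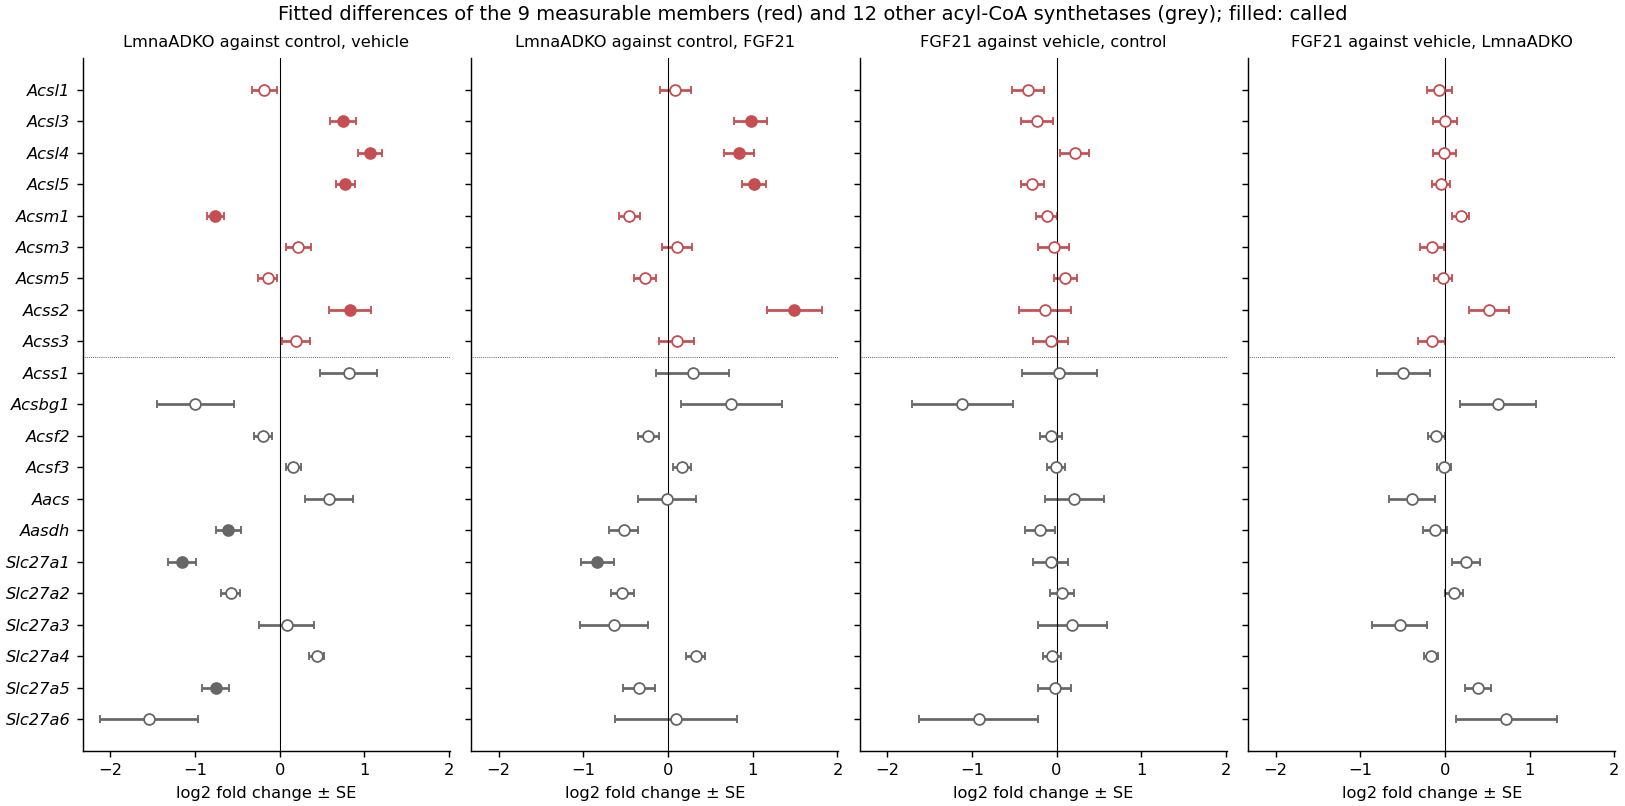
Log2 fold change with its SE from the fit over all genes, for 9 members (red) and 12 other acyl-CoA synthetases (grey), in 4 comparisons, with filled points for genes past both thresholds. Filled red points appear only in the genotype comparisons, 5 with vehicle and 4 with FGF21, and the filled grey points there all lie left of 0.

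The rest of the acyl-CoA synthetases, taken by name, gave 13 genes with a row out of 15. This rest was fixed by the choice of members, made with earlier results of these data known. A contrast between it and the members is therefore a description only. In vehicle-treated livers 3 of 13 passed (4 with DESeq2), all lower in LmnaADKO mice. The median log2 fold change of the list was -0.39. Of all genes, 8.48% passed there with edgeR, 3.36% lower. *Slc27a1*, a fatty acid transport protein with synthetase activity, fell from 19.3 ± 2.82 to 8.65 ± 1.69 CPM (mean ± SD, n = 7 and 6, log2 fold change -1.15 ± 0.17, adjusted p = 2.7e-05). *Slc27a5*, the bile acid-CoA ligase of liver, fell from 1038 ± 113 to 616 ± 126 CPM (-0.75 ± 0.16, adjusted p = 0.0015), and *Aasdh* from 5.79 ± 0.905 to 3.81 ± 0.344 CPM (-0.60 ± 0.14, adjusted p = 0.0040). For these 3 genes no LmnaADKO library with vehicle reached the lowest control. Another 2 of the 13, named here after their values were seen, had an adjusted p under 0.05 with a fold under 1.5 and went opposite ways. *Slc27a2* was lower, at -0.58 ± 0.11 (adjusted p = 0.00064), and *Slc27a4* higher, at 0.44 ± 0.089 (adjusted p = 0.0010), each with no overlap of the groups. Groups with vehicle did not overlap for 7.95% of all genes, 4.22% higher and 3.73% lower. With FGF21 only *Slc27a1* passed for genotype (-0.84 ± 0.20, adjusted p = 0.013), where 2.88% of all genes passed, 1.26% lower. None passed for FGF21 against vehicle in either genotype with edgeR or DESeq2. At an unadjusted p under 0.05 there were 0 in controls and 1 in LmnaADKO livers, where 1476 and 1608 of all 23972 genes were.

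Genes that take over the product were counted next. None of 6 acyl-CoA binding proteins passed for genotype with vehicle in edgeR or DESeq2. Nor did any of 5 genes of mitochondrial entry (the carnitine acyltransferases and the carrier). At an unadjusted p under 0.05 there were 3 and 2, where 6481 of all 23972 genes were with edgeR. The median log2 fold changes of the 2 lists were 0.34 and 0.14. Of 10 genes of glycine and taurine conjugation and of coenzyme A supply, 2 passed, both lower in LmnaADKO livers. Both are of the glycine N-acyltransferase family. Over all genes with vehicle, 8.48% passed with edgeR, 3.36% lower. *Keg1* fell from 39.8 ± 6.90 to 15.1 ± 1.48 CPM (n = 7 and 6, -1.40 ± 0.16, adjusted p = 9.2e-07) and *Gm4952* from 205 ± 48.2 to 122 ± 26.1 CPM (-0.75 ± 0.16, adjusted p = 0.0015). *Glyat*, the glycine N-acyltransferase itself and named here after its values were seen, was at 183 ± 31.5 and 180 ± 8.32 CPM (-0.023 ± 0.15, adjusted p = 0.98). With FGF21 1 of the 10 passed, *Keg1* again (-0.78 ± 0.19, adjusted p = 0.014), where 2.88% of all genes passed, 1.26% lower.

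Lists of known targets of the regulators named above were counted in the same way. With vehicle, 8.48% of all genes passed for genotype with edgeR, 5.12% higher and 3.36% lower. Of 13 SREBP target and pathway genes, 5 were higher and 0 lower in vehicle-treated LmnaADKO livers (7 and 0 with DESeq2, median log2 fold change 0.83). They included the desaturase *Scd1* (3.00 ± 0.56, adjusted p = 0.00087), *Hmgcs1* of sterol synthesis (1.60 ± 0.26, adjusted p = 0.00016) and the squalene epoxidase *Sqle* (1.49 ± 0.46, adjusted p = 0.033). With FGF21, 5 of 13 were higher and 0 lower (6 and 0 with DESeq2), where 1.61% of all genes were higher and 1.26% lower with edgeR. Of 12 PPARA targets, 1 was higher with vehicle (the peroxisomal *Pex11a*, 0.99 ± 0.16, adjusted p = 7.3e-05). Of the same 12, 1 was lower (the fatty acid hydroxylase *Cyp4a10*, -1.04 ± 0.21, adjusted p = 0.00094). DESeq2 gave 2 higher and 1 lower. *Acsl1*, a PPARA target itself, did not pass. The part of SREBP or PPARA in the members' values was not tested. In controls and in LmnaADKO livers no gene of the SREBP and PPARA lists passed for FGF21 against vehicle with edgeR or DESeq2. At an unadjusted p under 0.05 were 1 of 13 and 1 of 12 in controls (1476 of all 23972 genes). In LmnaADKO livers 0 and 1 were (1608 of all genes).

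Across the 24 libraries, the genes with the pattern nearest to each member were sought among 9924 genes with a mean of at least 2 log2 CPM. Pearson's r is given over all libraries, where it includes the genotype difference, and after the group means were taken away, and all points share the same libraries and depth. *Acss2* lay nearest to *Rdh11*, a retinol dehydrogenase (r = 0.968, and 0.919 within groups), and to *Lss*, the lanosterol synthase of sterol synthesis (0.941 and 0.815). Without the 3 libraries that stand apart, the within-group values were 0.932 and 0.851. *Acsl3* lay nearest to *Insig1*, a sterol-responsive gene (0.886 and 0.690), and *Slc44a1*, a choline transporter (0.885 and 0.655). For *Acsl5*, *Aqp8* was among the nearest (0.939 and 0.713), and for *Acsl4* they were *Tgfbr2* (0.915 and 0.530) and *Ivns1abp* (0.912 and 0.556), with within-group values of 0.485 and 0.402 without those 3 libraries.

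*Acsm1* lay nearest to *Stk11* (0.943 and 0.718) and the clotting factor gene *F7* (0.938 and 0.679). For *Acsm5* the nearest genes were *Phyh* (0.811 and 0.795) and *Ahcy* (0.785 and 0.832), and for *Acsm3* they were *Mia2* (0.865 and 0.881) and *Afg3l2* (0.858 and 0.853, with 0.774 within groups when the 3 libraries were left out). The nearest gene to *Acsl1* was *Akap1* (0.898 and 0.876), and its within-group value was 0.653 without those 3 libraries. *Timm29* came second for *Acsl1* (0.872 and 0.886, then 0.709). For *Acss3* the nearest were *Klhl7* (0.820 and 0.828) and *Slco1b2* (0.820 and 0.839), with 0.689 and 0.785 without them.

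**Figure D4:**
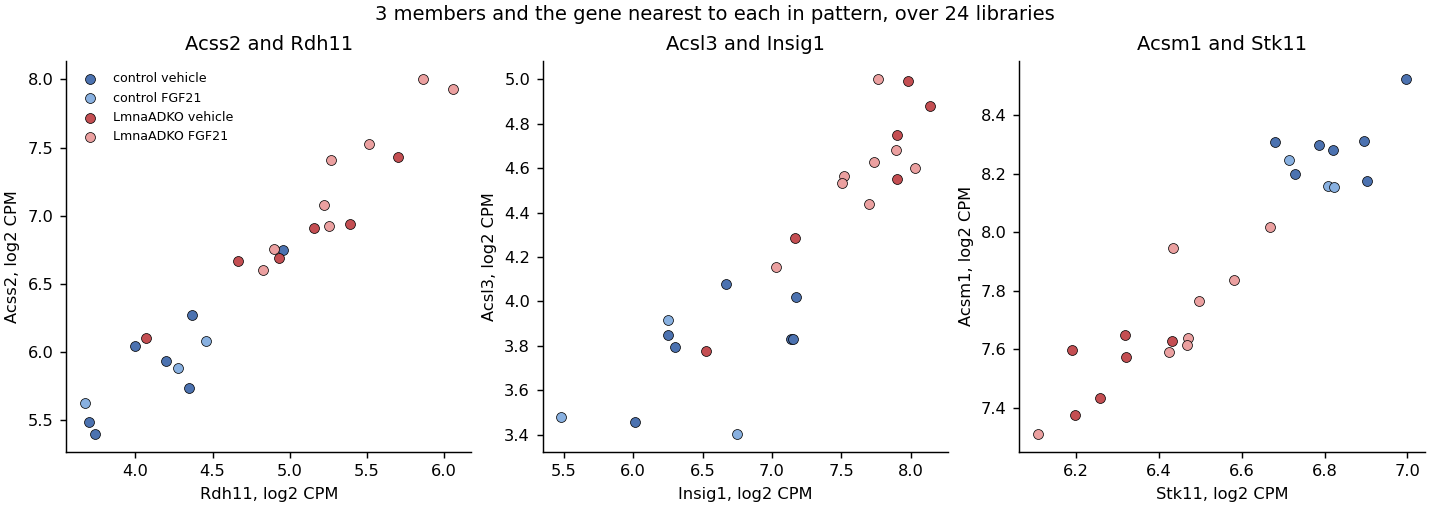
Log2 CPM of *Acss2*, *Acsl3* and *Acsm1* (vertical) against the gene nearest to each in pattern, *Rdh11*, *Insig1* and *Stk11* (horizontal), 1 point a library, coloured by group. Within-group r is 0.919, 0.690 and 0.718, and the *Acss2* points keep to 1 line in all 4 groups.

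Among the members themselves, the pairs with the highest within-group r over 24 libraries were *Acsl1* with *Acsm3* (0.657), *Acsl3* with *Acss2* (0.631) and *Acsm3* with *Acsm5* (0.619). Without the 3 libraries that stand apart these were 0.383, 0.576 and 0.639. *Acsl4* and *Acsl5*, both higher in LmnaADKO livers, had a within-group r of 0.075. *Acsm1* and *Acss2*, which differed in opposite directions with genotype, had 0.569 within groups against -0.498 over all libraries.

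Markers of cell types were counted for genotype with vehicle in the same way, where 8.48% of all genes passed with edgeR. An unadjusted p under 0.05 was reached by 6481 of all 23972 genes. Fewer cells of a type cannot be told apart from less RNA per cell in whole liver. Of 5 cholangiocyte markers 1 passed with vehicle, *Spp1*, which was higher (1.83 ± 0.31, adjusted p = 3.0e-04). Their summed level was 27.0 to 51.2 CPM in controls and 85.8 to 196 CPM in LmnaADKO livers. *Spp1* itself, at means of 32.7 and 116 CPM, makes up most of these sums. *Krt19*, *Krt7*, *Epcam* and *Sox9*, at means of 1.75, 1.04, 2.72 and 2.85 CPM in LmnaADKO livers, did not pass. Of 6 stellate cell markers *Lrat* passed and was higher, with sums of 196 to 250 and 249 to 342 CPM. *Dcn*, at means of 138 and 189 CPM, makes up most of these sums (0.46 ± 0.092, adjusted p = 0.00088, fold under 1.5). *Col1a1* and *Pdgfrb* were higher without passing (1.46 ± 0.51 and 0.21 ± 0.17). *Des* and *Reln* went the other way without passing (-0.27 ± 0.12 and -0.20 ± 0.093, adjusted p = 0.14 and 0.16). Among 5 endothelial markers *Lyve1* passed and was higher (1.93 ± 0.21, adjusted p = 5.8e-07), but the median log2 fold change of the list was -0.27. Another 2 had an adjusted p under 0.05 with a fold under 1.5, *Pecam1* (0.30 ± 0.093) and *Stab2* (-0.30 ± 0.10), and the list had sums of 194 to 244 and 178 to 228 CPM. None of 6 macrophage and Kupffer cell markers passed with edgeR or DESeq2 (2 at an unadjusted p under 0.05), with sums of 522 to 739 and 345 to 621 CPM. Of 6 hepatocyte markers, 3 were lower (*Cyp2e1*, *Cps1* and *Serpina1e*), with sums of 79880 to 138900 and 68280 to 103600 CPM. None of 5 lymphocyte markers passed with edgeR (2 at an unadjusted p under 0.05, 1 called by DESeq2), with sums of 4.28 to 9.44 and 3.43 to 8.57 CPM.

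The part of these cells in the values of *Acsl3*, *Acsl4*, *Acsl5*, *Acsm1* and *Acss2* was not tested. *Adipoq*, *Lep*, *Plin1* and *Retn*, 4 of 5 adipocyte markers, had at most 3 counts in every LmnaADKO library. The fifth, *Cfd*, was at 0.422 ± 0.665 CPM in vehicle-treated controls and 1.48 ± 0.233 CPM in vehicle-treated LmnaADKO livers (1.79 ± 0.63, adjusted p = 0.057 with edgeR), and DESeq2 called 1 adipocyte marker higher there. The summed adipocyte markers were 0.0454 to 2.95 CPM in vehicle-treated controls and 1.196 to 1.80 CPM in vehicle-treated LmnaADKO livers. Of 3 pancreatic acinar markers with a row 1 passed and was lower (*Cela2a*), at sums of at most 0.487 CPM in controls and 0.0902 CPM in LmnaADKO livers with vehicle. Of 3 erythroid markers *Alas2* passed and was higher, with sums of 175 to 1285 and 467 to 2291 CPM. In FGF21-treated livers *Lyve1* (higher) and *Cyp2e1* (lower) passed for genotype with edgeR among all these markers. Over all genes 2.88% passed there. DESeq2 also called 1 cholangiocyte and 1 erythroid marker higher and 1 endothelial marker lower. No marker passed for FGF21 in either genotype with edgeR or DESeq2. The cholangiocyte sums in FGF21-treated livers were 32.2 to 38.4 CPM in controls and 50.3 to 241 CPM in LmnaADKO livers, mostly *Spp1* (means 30.6 and 81.4 CPM).

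Some members share sequence with annotated neighbours, and the strand setting of the counting is not given in the sources used here. *Acsl3* shares 244 exonic bases on the same strand with *Utp14b*, whose log2 fold change for genotype was 0.26 ± 0.18 with vehicle (adjusted p = 0.36). On the opposite strand, *Acsl5* shares 404 bases with *Zdhhc6* (-0.25 ± 0.075, adjusted p = 0.025, fold under 1.5), and *Acss2* shares 395 bases with *Gss* (0.58 ± 0.14, adjusted p = 0.0053, fold under 1.5), 197 with *Ggt7* and 335 with *Acss2os*, which has no row. *Acsm3* shares 1962 bases with *Eri2* (-0.013 ± 0.12), *Acsm5* 104 with *Pdilt* (-0.55 ± 0.21, adjusted p = 0.078), *Acsl1* 1039 with *Gm45244* and *Acss3* 2436 with *Ppfia2*. *Gm19950* lies opposite *Acsm1* without shared exonic bases (0.38 ± 0.14, adjusted p = 0.068). The part of these neighbours in the members' counts was not tested.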

How the data were processed

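Liver poly(A) RNA of 24 mice was sequenced, and the authors deposited 1 table of whole-number counts per gene. Per the labels, the submitters' processing notes name GRCm38, cutadapt 4.8, FastQC 0.11.8, STAR 2.7.8a and RSEM 1.3.3 without a role. If RSEM made the counts they are rounded estimates that divide reads among similar genes. The methods and the labels name different sequencing providers. Groups came from the genotype and treatment labels, and Rescue was read as FGF21 from the study's methods.

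The members and all gene lists were chosen with earlier results of these data known. All 23972 genes were fitted with edgeR 4.0.16 in R 4.3.3 (TMM, robust quasi-likelihood, 4 groups, no covariate), with Benjamini-Hochberg adjustment. A call needed an adjusted p under 0.05 together with a fold above 1.5, the thresholds of the study. SEs were derived from the F statistic and the fitted change. CPM used TMM-scaled totals, and log2 CPM a prior count of 2. The floor was 3 counts a library and covers counting error only. SEs and p-values rest on the spread between these animals as estimated in the fit, and SDs are those between the libraries of a group.

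In each list, values are given for at most 4 genes, those called with vehicle with the largest change. Cell markers are named where called. For each member, overlapping genes and the 2 genes of highest Pearson's r were named. Some genes these rules select are not reported here. Principal transcripts (APPRIS) were taken for levels per length after exon unions were found to be much longer. All 67 pairs of libraries within a group differed by more than sampling noise (chi-square per degree of freedom 14.1 or more). Alternatives were DESeq2 1.42.0 (also for size factors in edgeR), filterByExpr, other libraries or covariates, and leaving out each library.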

Additional observations from a re-analysis of the deposited data

Results flagged for a closer look

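Among 27 sets of values (9 members in 3 groups of 4 to 10 libraries), 2 held a library far from the rest, both in the fifth vehicle-treated control. *Acsl5* was at 312.2 CPM there, against 264.9 CPM in the next library (a gap of 0.607 of the range, critical value 0.568), and *Acsm1* at 368.1 CPM, against 318.0 CPM (0.636). Chance marks about 1 set in 20. The same animal was also the highest vehicle-treated control in *Acss2*, at 108 CPM. Both genes passed for genotype without it. The cause was not tested.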

How the results depend on the processing

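No paired analysis was possible because each animal has its own number and no number is shared between groups. Of 1017 values of members under alternatives, 1005 kept their side of the thresholds (and, where not called, moved by less than 1 SE), 7 lost and 1 gained a call, 4 moved by more, and none turned a called direction. The 7 lost calls are those of *Acss2*, *Acsl3* and *Acsl4* given above, and the gained one is *Acsm1* with FGF21 on adjusted p alone. For genotype with vehicle, adjusted p alone gave 3623 genes and 5 other synthetases, and leaving out 1 library gave 2 to 5 other synthetases (5 without the fourth control). For genotype with FGF21, genes called were 307 with 4-digit animals only, 344 with only the groups compared and 402 without the 3 libraries that stand apart, and 339 to 1149 leaving out 1 library (339 without the third control, 1149 without the seventh LmnaADKO mouse). Members called there were 2 to 4 leaving out 1 library. Other synthetases called were 2 on adjusted p alone, 0 with 4-digit animals only, 0 with only the groups compared and 0 to 2 leaving out 1 library. For FGF21 in controls (13 genes), DESeq2 gave 38, the number series as a covariate 0 and leaving out 1 library 3 to 26. For FGF21 in LmnaADKO livers, DESeq2 gave 15, 4-digit animals only 2, and leaving out 1 library 0 to 61 (61 without the third FGF21-treated mouse). For the interaction (1 gene), DESeq2 gave 11, its size factors in edgeR 2, filterByExpr 2, the length slope as a covariate 3, the number series 0, the fit without the 3 libraries 5 and leaving out 1 library 0 to 5. The causes were not tested. *Acsm2* is too low at this depth for any difference to be seen.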
